A study of Mus musculus with 8 samples.

Results

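The genes described here are 36 genes of the postsynaptic density, measured in the hippocampus of old mice transgenic for amyloid precursor protein. They were chosen by name, as postsynaptic scaffold and signalling genes, mostly of excitatory synapses, and glutamate receptor subunits were left out. All 36 were found on the array by gene symbol, each with 1 probe set, out of 19505 named genes. All 36 also lay above the floor for dim genes, a mean of 5.33 on the log2 scale, and so were among the 14628 genes tested. The members had gene means from 7.80 to 13.09, and 35 of 36 exceeded 7.92, the 95th percentile of the intron probe sets that serve as background on this array, as did 46.0% of the genes tested. The exception was Homer3.

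The study compared 4 mice with impaired memory and 4 with intact memory after the Morris water maze, in which a mouse learns where a hidden platform lies. All 8 mice were B6.Cg-Tg(APPswe)E1-2Dbo/J animals, which express amyloid precursor protein with the Swedish mutation, and their age was 18 to 20 months. Both groups therefore carry the transgene, and no mouse without it is among the samples. The labels give neither the sex of the mice nor the score that separated the groups, and each mouse gave 1 array of hippocampal RNA.

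The postsynaptic density is a protein-rich layer under the membrane of an excitatory synapse. Scaffolds of the PSD-95 family hold glutamate receptors in place, SAPAP adaptors link them to SHANK proteins, and Homer proteins tie SHANK to metabotropic receptors and calcium stores. Calcium entering through NMDA receptors activates the kinase CaMKII, and regulators of small GTPases and actin then set the size of the dendritic spine. In the hippocampus these proteins are best known for their part in long-term potentiation and in learning, and loss of excitatory synapses accompanies amyloid disease.

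Across the 36 genes, expression in mice with impaired memory was close to that in mice with intact memory. The mean was lower in the impaired group for 15 genes and higher for 21, and the median difference, impaired minus intact, was 0.014 on the log2 scale. Over all genes tested, 52.9% had a lower mean in the impaired group, and the median difference was -0.0083. No member passed an adjusted p of 0.05 (limma), where 0% of all genes tested did, and 0 of 36 had an unadjusted p under 0.05, where 685 of all genes tested, or 4.68%, did. No member had groups that did not overlap, against 2.58% of all genes tested. The size of the differences was also small: the median absolute difference was 0.042 for the members and 0.077 for all genes tested. The members were brighter than most genes, with 35 of 36 above the background level of 7.92 against 46.0% of all genes tested, and the part of brightness in the size and spread of the differences was not tested. Beside these counts stands their dependence on single mice. Without intact mouse 4, 23 members were lower in the impaired group. In that fit the median difference of all genes tested was -0.0097, against -0.0083 with all mice. Without impaired mouse 4, 2 of 36 members, Dlg1 and Dlgap3, had an unadjusted p under 0.05. In the same fit 6.43% of all genes tested did. The member count was 1 of 36 without impaired mouse 2 or intact mouse 4, where it was Dlg1, against 5.28% and 5.43% of all genes. It was also 1 of 36 without intact mouse 3, where it was Dlgap2, against 5.15% of all genes.

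**Figure D1:**
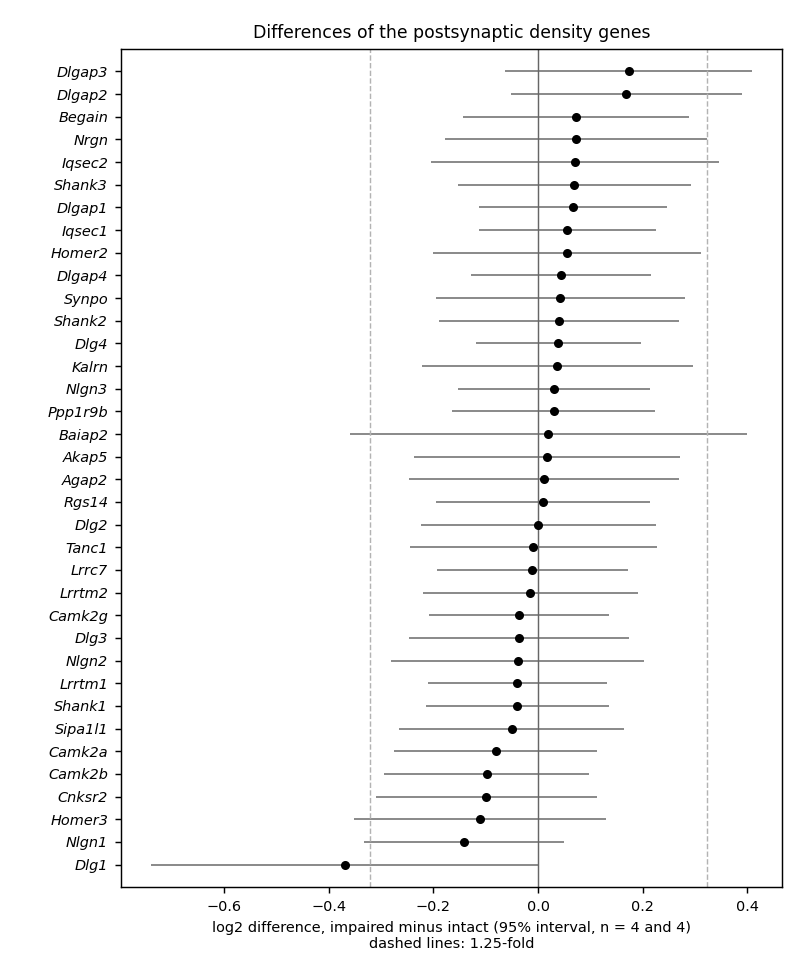
Log2 difference of each of the 36 genes, impaired minus intact, as a point with its 95% interval from limma (n = 4 mice in each group); the dashed lines mark 1.25-fold in either direction. All 36 intervals include 0, and 28 lie between the dashed lines.

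The intervals state how large a difference these 8 arrays leave possible. All 36 of the 95% intervals included 0, each taken for its own gene with no adjustment for their number. For 28 of 36 members the interval lay within 1.25-fold in either direction, which is 0.32 on the log2 scale, and for 35 it lay within 1.5-fold. The exception to the wider limit was Dlg1, whose interval reached a 1.67-fold lower value in the impaired group. Apart from Dlg1, no bound was lower than -0.36 or higher than 0.41. In whole hippocampus, fewer cells of a type and less RNA per cell cannot be told apart, so a small difference in a bulk value does not describe single synapses or cells.

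The PSD-95 family consists of the membrane-associated guanylate kinases Dlg1 to Dlg4, which bind receptors and adhesion molecules through PDZ domains. Dlg1, which encodes SAP97, a member that also traffics AMPA receptors, had the smallest p of the 36 members. Its expression was 8.01, 8.53, 8.06 and 8.56 in impaired mice 1 to 4 and 8.89, 8.66, 8.83 and 8.25 in intact mice 1 to 4. Impaired mice 1 and 3 were the lowest of the 8, and 3 of the 4 intact mice lay above every impaired mouse, while intact mouse 4 fell between the impaired values. The group means were 8.29 ± 0.29 (SD, n = 4) and 8.66 ± 0.29 (SD, n = 4), a difference of -0.37 with a standard error of 0.17 (limma, unadjusted p = 0.0509, adjusted p = 0.961). That is 1.29-fold lower in the impaired group, with a 95% interval of the log2 difference from -0.74 to 0.0018.

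The value of Dlg1 moved with the mice and settings used. Without intact mouse 4 the difference was -0.50 (limma, unadjusted p = 0.00812, adjusted p = 0.861), and without both mice numbered 3 it was -0.24. With a score of pan-neuronal markers as a covariate it was -0.43 with a standard error of 0.075 (limma, unadjusted p = 0.000221, adjusted p = 0.463). The adjusted p of Dlg1 was between 0.463 and 1.00 over the 17 alternative settings, so the gene was called in none of them, and its difference was negative in all of them.

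Dlg4 encodes PSD-95, the most studied scaffold of excitatory synapses, and it was among the steadiest genes on the arrays. Its expression was 12.051, 12.057, 12.003 and 12.049 in the impaired mice and 11.958, 11.985, 12.079 and 11.984 in the intact mice. The 8 values spanned only 11.96 to 12.08, and the groups overlapped. The difference was 0.038, with a 95% interval from -0.12 to 0.20. Dlg2, which encodes PSD-93, stood at 10.24 ± 0.16 in the impaired group and 10.24 ± 0.13 in the intact group (SD, n = 4 each), a difference of 0.00035. Dlg3, which encodes SAP102, stood at 9.79 ± 0.13 and 9.82 ± 0.12 (SD, n = 4 each). Of the 4 genes of the family, 2 were lower and 2 higher in the impaired group, with a median difference of -0.018.

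**Figure D2:**
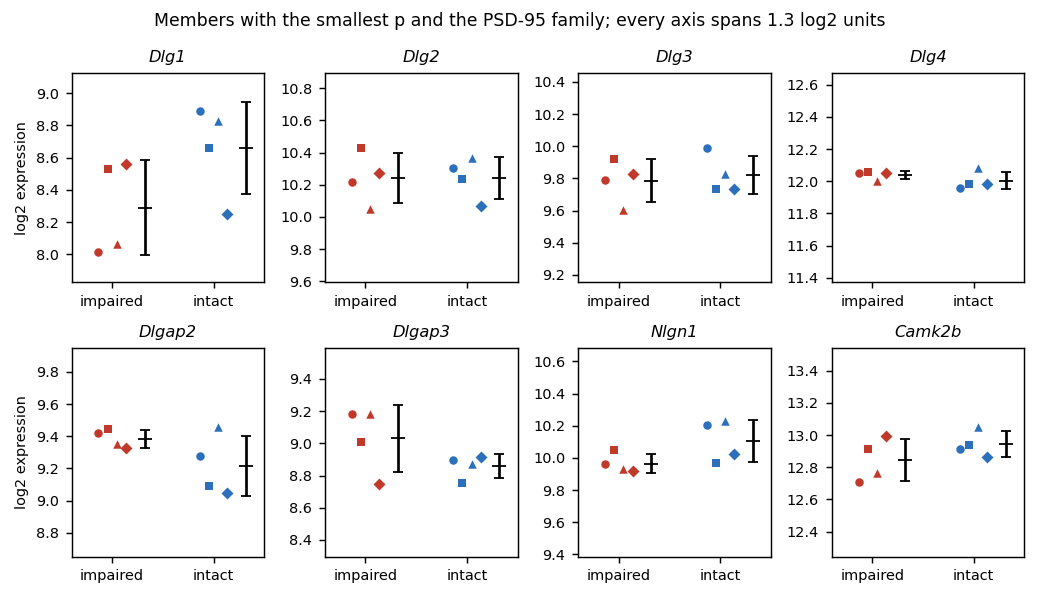
Log2 expression of Dlg1 to Dlg4, of Dlgap2, Dlgap3 and Nlgn1, which have the smallest p after Dlg1, and of Camk2b, 1 symbol per mouse (circle, square, triangle and diamond for mice 1 to 4), with the group mean and SD beside the symbols (n = 4). Each vertical axis spans 1.3 log2 units; Dlg1 shows the widest scatter, and the groups overlap for every gene shown.

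SAPAP adaptors, encoded by Dlgap1 to Dlgap4, bind the guanylate kinase domain of PSD-95 and the PDZ domain of SHANK. All 4 had higher means in the impaired group, by a median of 0.12, also under each of the 17 alternative settings, and 0 of 4 passed the test. Dlgap2 was 9.42, 9.45, 9.35 and 9.33 in the impaired mice and 9.28, 9.09, 9.45 and 9.04 in the intact mice. Intact mice 2 and 4 were the lowest and intact mouse 3 stood level with impaired mouse 2. The difference of Dlgap2 was 0.17 (SE 0.10; limma, adjusted p = 0.961). Leaving out intact mouse 3 gave 0.25 (limma, unadjusted p = 0.0217, adjusted p = 0.922).

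Dlgap3, which is abundant in striatum as well as in hippocampus, was 9.19, 9.01, 9.19 and 8.75 in the impaired mice and 8.90, 8.75, 8.87 and 8.91 in the intact mice. In 3 impaired mice it lay above every intact mouse, and in impaired mouse 4 it was the lowest of all. Its difference was 0.17 (SE 0.11; limma, adjusted p = 0.961). Leaving out impaired mouse 4 gave 0.27 (limma, unadjusted p = 0.0141, adjusted p = 0.694). Dlgap1 was 11.55, 11.54, 11.58 and 11.64 in the impaired mice and 11.54, 11.39, 11.65 and 11.48 in the intact mice, so that the impaired range lay inside the intact range. Dlgap4 stood at 9.68 ± 0.047 and 9.64 ± 0.090 (SD, n = 4 each), with a 95% interval of the difference from -0.13 to 0.22. Markers of striatum, a tissue with high Dlgap3, had scores of -0.24 to 0.0052 in the impaired mice and -0.16 to 0.57 in the intact mice, lower in 7 of 7 measured markers; their part in the result was not tested.

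SHANK proteins are the deeper scaffold of the density, and Homer proteins form tetramers that bind them. Of the 5 genes, 2 were lower and 3 higher in the impaired group, and 0 of 5 passed. Shank3, whose loss causes an autism-related syndrome in humans, was 7.998, 8.257, 8.394 and 8.310 in the impaired mice and 8.019, 8.199, 8.230 and 8.236 in the intact mice. Mouse 1 of each group was the lowest, and the other mice of both groups lay together above it. The difference of Shank3 was 0.069, with a 95% interval from -0.15 to 0.29. Shank1 stood at 11.70 ± 0.066 and 11.74 ± 0.086 and Shank2 at 9.32 ± 0.10 and 9.28 ± 0.18 in the impaired and intact groups (SD, n = 4 each).

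Homer3 was 7.601, 7.705, 7.746 and 7.907 in the impaired mice and 7.883, 7.701, 8.106 and 7.713 in the intact mice. Intact mouse 3 alone stood above the rest. The difference was -0.11 (limma, adjusted p = 0.961) with all mice and -0.026 without intact mouse 3. Homer2 stood at 8.23 ± 0.20 in the impaired group and 8.18 ± 0.16 in the intact group (SD, n = 4 each), a difference of 0.055 with a 95% interval from -0.20 to 0.31.

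CaMKII is the calcium- and calmodulin-dependent kinase that is among the most abundant proteins of the density, and neurogranin, encoded by Nrgn, holds calmodulin at low calcium. The alpha subunit gene Camk2a was 12.93, 13.04, 13.02 and 13.19 in the impaired mice and 13.20, 13.04, 13.23 and 13.04 in the intact mice. Impaired mouse 1 was the lowest of the 8 and intact mouse 3 the highest, with overlap between. Camk2b, the beta subunit gene, which also binds actin, was 12.71, 12.91, 12.77 and 12.99 in the impaired mice and 12.91, 12.94, 13.05 and 12.87 in the intact mice, again lowest in impaired mouse 1 and highest in intact mouse 3. The differences were -0.081 for Camk2a and -0.098 for Camk2b, with standard errors of 0.088 and 0.089 (limma, adjusted p = 0.961 for both).

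The gamma subunit gene Camk2g stood at 9.84 ± 0.015 in the impaired group and 9.88 ± 0.10 in the intact group (SD, n = 4 each). Nrgn was 12.25, 12.22, 12.34 and 12.51 in the impaired mice and 12.34, 12.03, 12.49 and 12.15 in the intact mice. The intact mice spanned 12.03 to 12.49 and enclosed 3 of the 4 impaired values. Its difference was 0.072, with a 95% interval from -0.18 to 0.32. Of the 4 genes, the 3 kinase subunits were lower and Nrgn was higher in the impaired group, and 0 of 4 passed.

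The adhesion molecules of the list reach across the cleft to presynaptic neurexins. Neuroligin 1 acts at excitatory synapses and neuroligin 2 at inhibitory ones, while neuroligin 3 is found at both. Nlgn1 was 9.96, 10.05, 9.93 and 9.92 in the impaired mice and 10.21, 9.97, 10.23 and 10.02 in the intact mice. Intact mice 1 and 3 stood above all others, and intact mice 2 and 4 lay within the impaired range. The difference of Nlgn1 was -0.14 (SE 0.087; limma, unadjusted p = 0.131, adjusted p = 0.961). It was -0.089 without both mice numbered 3.

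Nlgn2 stood at 9.71 ± 0.21 and 9.75 ± 0.090 and Nlgn3 at 10.54 ± 0.064 and 10.51 ± 0.11 in the impaired and intact groups (SD, n = 4 each). The leucine-rich repeat proteins Lrrtm1 and Lrrtm2 differed by -0.039 and -0.015, with 95% intervals from -0.21 to 0.13 and from -0.22 to 0.19. Lrrtm2 was the one adhesion gene that was lowest in intact mouse 3, at 9.79, and its highest value, 10.16, was in intact mouse 2. In all, 4 of 5 adhesion genes had lower means in the impaired group, with a median of -0.039, and 0 of 5 passed.

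The anchoring and adaptor proteins connect the scaffold with kinases and the cytoskeleton. Cnksr2 encodes CNK2, a scaffold that binds PSD-95 and regulators of Ras and Rac signalling. It was 12.36, 12.41, 12.34 and 12.49 in the impaired mice and 12.58, 12.42, 12.68 and 12.30 in the intact mice. Both the highest and the lowest value were in intact mice, 3 and 4. The difference was -0.099 with all mice (limma, adjusted p = 0.961) and -0.019 without both mice numbered 3.

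Begain, a guanylate kinase-binding protein, was 8.14, 7.99, 8.13 and 8.14 in the impaired mice and 7.87, 7.89, 8.22 and 8.13 in the intact mice. Intact mice 1 and 2 were the lowest of the 8 and intact mouse 3 the highest. Akap5, which anchors protein kinase A and calcineurin, Lrrc7, which encodes densin, a partner of CaMKII, and the scaffold gene Tanc1 differed by 0.017, -0.011 and -0.0091. The 95% intervals of these genes lay within -0.25 to 0.27. Of the 5 genes in the group, 3 were lower and 2 higher in the impaired mice, and 0 of 5 passed.

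Among regulators of small GTPases, Iqsec1 and Iqsec2 encode activators of Arf6, Sipa1l1 a GTPase-activating protein for Rap, and Kalrn an activator of Rac. Agap2 encodes a GTPase that enhances phosphoinositide 3-kinase, and Rgs14 a regulator of G protein signalling that is enriched in area CA2. Iqsec1 was 9.37, 9.49, 9.34 and 9.38 in the impaired mice and 9.44, 9.28, 9.32 and 9.33 in the intact mice. All values lay between 9.28 and 9.49 and the groups overlapped. Its difference was 0.056, with a 95% interval from -0.11 to 0.22.

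Differences in the other 5 regulators ran from -0.051 for Sipa1l1 to 0.071 for Iqsec2, and 0 of 6 passed. Iqsec2 stood at 8.30 ± 0.22 and 8.23 ± 0.17, Kalrn at 10.33 ± 0.048 and 10.30 ± 0.25, and Agap2 at 10.75 ± 0.14 and 10.74 ± 0.22 in the impaired and intact groups (SD, n = 4 each). Rgs14 stood at 8.84 ± 0.064 and 8.83 ± 0.15 (SD, n = 4 each), with a 95% interval of the difference from -0.19 to 0.21. Other markers of CA2 had scores of -0.036 to 0.15 in the impaired mice and -0.26 to 0.067 in the intact mice.

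The 3 regulators of spine actin differed by 0.019 for Baiap2, 0.030 for Ppp1r9b and 0.043 for Synpo. Baiap2, which encodes IRSp53, a link between Rac and the membrane, was the most variable member. It ran from 9.29 to 9.63 in the impaired mice and from 8.95 in intact mouse 4 to 9.81 in intact mouse 1, so that its 95% interval reached from -0.36 to 0.40. Ppp1r9b, which encodes spinophilin, the spine anchor of protein phosphatase 1, ran from 10.61 to 10.77 and from 10.51 to 10.81. Synpo, which encodes synaptopodin of the spine apparatus, ran from 9.14 to 9.42 in the impaired mice and from 9.14 to 9.53 in the intact mice.

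**Figure D3:**
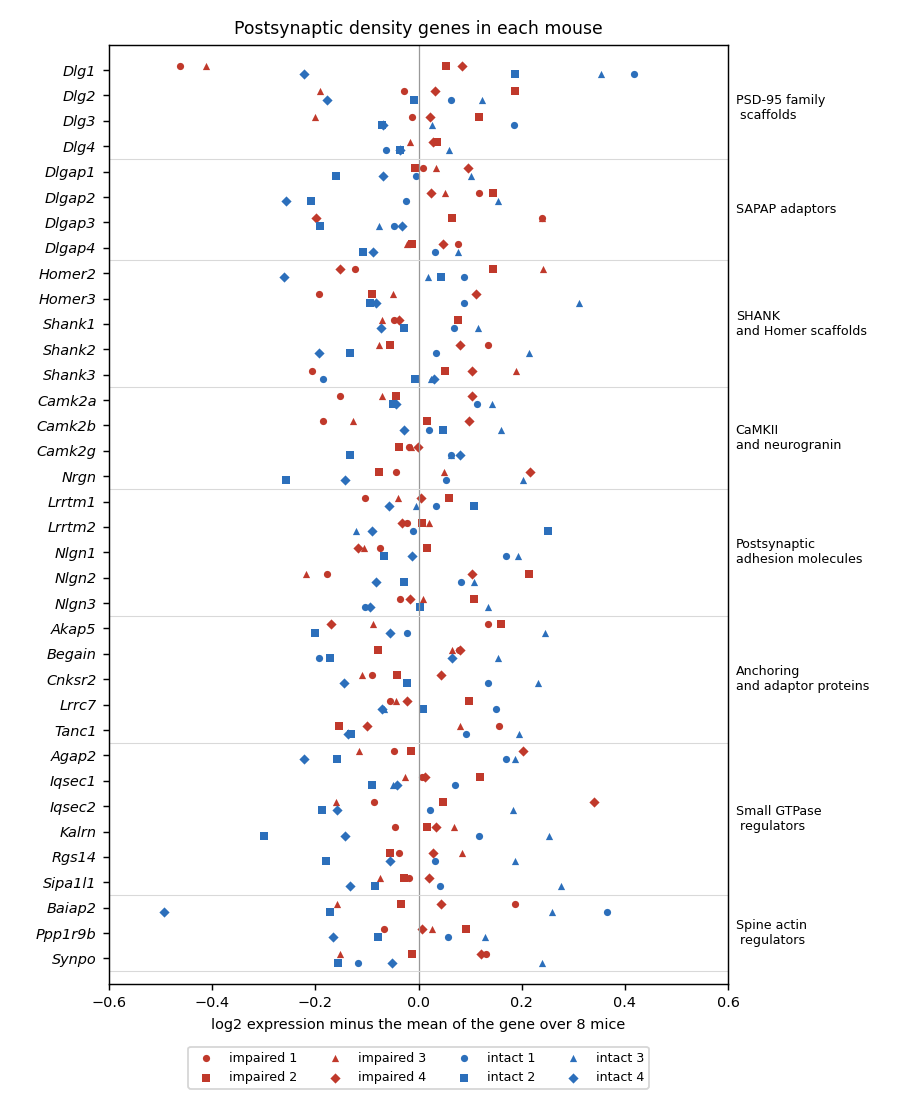
Expression of each of the 36 genes in each mouse, as the log2 value minus the mean of that gene over the 8 mice, with genes ordered by role; red symbols are the 4 impaired mice and blue symbols the 4 intact mice. The groups overlap in every row, and the blue triangle of intact mouse 3 is the rightmost symbol for 20 of the 36 genes.

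The members Dlg3, Nlgn3, Iqsec2 and Cnksr2 are X-linked genes. Their differences were -0.037, 0.031, 0.071 and -0.099. The sex of the mice is not in the labels, so that a comparison within each sex was not made.

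The extreme values of the members gathered in single mice. In intact mouse 3, 20 of 36 members had their highest value of the 8 mice, which is 55.6%, against 14.5% of all genes tested. There, 31 of 36 members were above their mean in the other 7 mice, by a median of 0.17, against 51.8% of all genes tested with a median of 0.0069. The peak in this mouse was not confined to the members. It was also seen among the 26 other adhesion genes that are counted below. Slitrk1 to Slitrk5, Epha4, Lrrc4, Lrrc4c, Lrfn2, Adgrb2, Adgrb3, Clstn2 and Flrt3 had their highest value there. For Slitrk2 the margin was small, 8.348 against 8.347 in impaired mouse 1. Lrrtm3, Lrrtm4, Clstn1, Clstn3, Cdh2, Il1rapl1, Lrfn3, Lrfn4, Lrfn5, Epha7, Adgrb1, Lrrc4b and Flrt2 had it in another mouse. The largest excess of intact mouse 3 over the other 7 mice was 0.41 for Dlg1, although its highest value was in intact mouse 1. Among members that peaked in intact mouse 3 it was 0.35 for Homer3. Sipa1l1, Kalrn, Akap5 and Synpo followed with 0.32, 0.29, 0.28 and 0.27. At the other end, intact mice 2 and 4 held the lowest value of 10 members each, or 27.8%, against 11.6% and 11.3% of all genes tested. In intact mouse 4, only 3 of 36 members exceeded their own mean over the 8 mice, against 50.3% of all genes tested. In intact mouse 2, 7 of 36 did, against 54.5%.

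A score of the 36 genes, their mean deviation from each gene's mean over the 8 mice, placed every impaired mouse between the extremes of the intact group. The score was -0.029, 0.030, -0.039 and 0.034 in impaired mice 1 to 4. In the intact mice it was 0.055, -0.080, 0.13 and -0.11. The difference of the scores between the groups was -0.0015, and the pooled standard deviation between mice of a group was 0.084.

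Marker genes of hippocampal areas and of bordering tissue also varied between single mice of both groups. Markers of CA1 pyramidal neurons had their highest score, 0.32, in intact mouse 3 and their lowest, -0.39, in intact mouse 4, with -0.18 in intact mouse 2. Markers of the thalamus, a neighbour of the hippocampus, had a score of -1.39 in intact mouse 3 and between -0.24 and 0.49 in the other mice, where intact mice 2 and 4, at 0.46 and 0.49, lay beside impaired mice 2 and 3, both at 0.44. Markers of the choroid plexus, the secretory tissue of the ventricle, were at -1.01 in intact mouse 3 and -0.99 in impaired mouse 3, and between -0.39 and 0.93 in the others. Oligodendrocyte markers were at -0.35 in intact mouse 3 and -0.31 in impaired mouse 1, at 0.34 and 0.25 in intact mice 2 and 4, and between -0.050 and 0.15 in the others. Pan-neuronal markers varied less, from -0.12 in intact mouse 4 to 0.064 in impaired mouse 4.

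**Figure D4:**
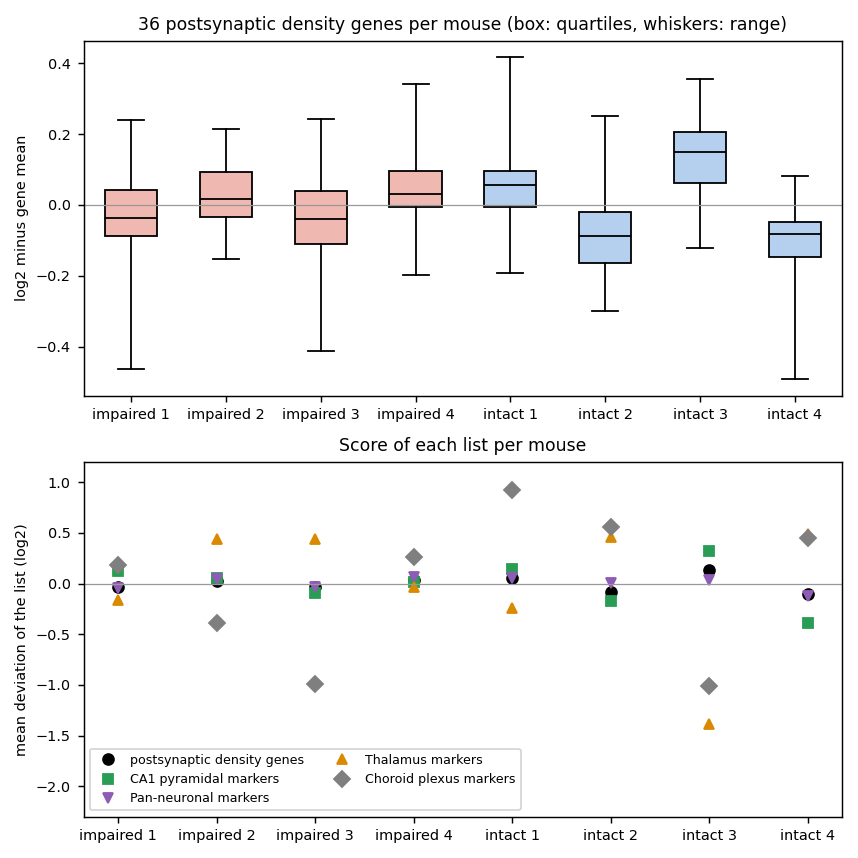
Upper panel: the 36 genes in each mouse, as log2 values minus the gene's mean over 8 mice (line, median; box, quartiles; whiskers, full range). Lower panel: the mean deviation per mouse of the 36 genes and of 4 marker lists, on the log2 scale. Intact mouse 3 has the highest postsynaptic and CA1 scores, 0.13 and 0.32, and the lowest thalamus score, -1.39.

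Leaving out the mice numbered 3 did not lead to a call. Without intact mouse 3 the median member difference was 0.067 and 13 members were lower in the impaired group. Without both mice numbered 3 it was 0.061 with 11 lower, and with the plexus and thalamus scores as covariates it was 0.037 with 13 lower. In each of these 3 fits, 0 of 36 members passed the adjusted test. In the fits that left out mice numbered 3, Dlgap2 was the only member with an unadjusted p under 0.05. Of all genes tested, 5.15% had such a p without intact mouse 3 and 4.66% without both mice numbered 3. How far tissue composition accounts for the values of single mice was not tested beyond these fits.

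Markers of hippocampal areas were measured in all 4 areas listed. By symbol, 6 of 7 markers of CA1, 7 of 8 of CA2, 7 of 8 of CA3 and 10 of 10 of dentate granule cells were found, and 6, 7, 7 and 9 of these lay above the floor. The floor leaves out only the 25% of genes with the lowest mean, and 12 of 12 markers each of thalamus and choroid plexus also lay above it, so that these counts do not tell hippocampus from bordering tissue. The scores of the CA3 and dentate lists overlapped between the groups, from -0.22 to 0.097 and from -0.18 to 0.20 in the impaired mice, and from -0.14 to 0.14 and from -0.10 to 0.13 in the intact mice. Plexus markers were lower in the impaired group in 12 of 12 genes and thalamus markers in 0 of 12.

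Members differed widely in how steady they were between mice of the same group. The median standard deviation within groups was 0.13 for the 36 genes and 0.15 for all genes tested, and 13 of 36 members lay above that all-gene median. The widest spread was that of Baiap2, Dlg1 and Iqsec2, at 0.30, 0.29 and 0.20. The narrowest was that of Dlg4, Iqsec1 and Lrrtm1, at 0.041, 0.066 and 0.069. The value for Dlg4 lay at percentile 0.67 among all genes tested, and those of Baiap2 and Dlg1 at percentiles 93.5 and 92.6.

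**Figure D5:**
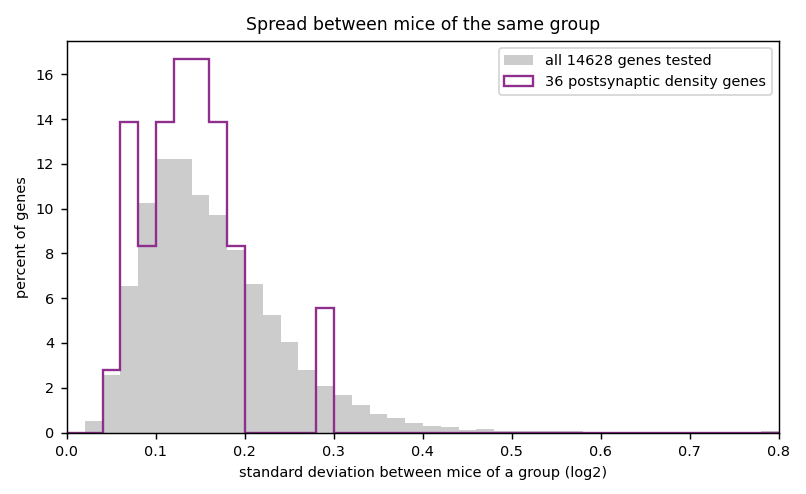
Distribution of the standard deviation between mice of the same group, pooled over both groups, in percent of the 14628 genes tested (grey) and of the 36 postsynaptic density genes (line), on the log2 scale. The members with the widest spread, Baiap2 and Dlg1, lie near 0.30 and 0.29; 0.123% of all genes lie beyond the axis limit of 0.8.

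A wider set of genes of the same pathway was compared in the same way. It comprised 7 lists with 125 genes, of which 112 were measured above the floor: other scaffolds, small GTPase regulators, calcium signalling proteins, adhesion molecules, their presynaptic partners, spine actin proteins and the enzymes of scaffold palmitoylation. No gene passed an adjusted p of 0.05 (limma), 62 of 112 had lower means in the impaired group, and the median difference was -0.017. The count with an unadjusted p under 0.05 was 2 of 112, against 4.68% of all genes tested, and both were lower in the impaired group. That count was 0 without impaired mouse 1 or impaired mouse 3 and 1 without intact mouse 1. In these fits 3.8%, 3.66% and 3.33% of all genes tested had such a p. The count was 4, 5 and 6 without intact mouse 3, intact mouse 4 and impaired mouse 2. There, the share of all genes tested was 5.15%, 5.43% and 5.28%.

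Ppp3cb, which encodes a catalytic subunit of calcineurin, the calcium-dependent phosphatase that opposes CaMKII, was the first of the 2. It was 11.18, 11.40, 11.08 and 11.60 in the impaired mice and 11.75, 11.57, 11.69 and 11.49 in the intact mice. Impaired mice 1 and 3 were the lowest of the 8, as they were for Dlg1, and impaired mouse 4 lay within the intact range. The difference was -0.31 (SE 0.12; limma, unadjusted p = 0.0257, adjusted p = 0.961), and with the plexus and thalamus scores as covariates it was -0.18. Other calcineurin genes of the list differed less. Ppp3ca, with a mean of 12.92 against 11.47 for Ppp3cb, differed by -0.017 (limma, unadjusted p = 0.841). Ppp3r1 differed by -0.15 (limma, unadjusted p = 0.139). Of the 17 measured genes of calcium signalling, 14 had lower means in the impaired group, with a median of -0.055.

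Myo5a, which encodes myosin Va, a motor that carries cargo into spines, was the other. It was 10.06, 10.22, 10.08 and 10.19 in the impaired mice and 10.26, 10.26, 10.45 and 10.39 in the intact mice, so that the groups did not overlap. The difference was -0.20 (SE 0.082; limma, unadjusted p = 0.034, adjusted p = 0.961). Among the 18 measured spine actin proteins, 10 were lower and 8 higher, with a median of -0.019.

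Dlg5, a relative of the PSD-95 family that also supports epithelial polarity, had groups that did not overlap but missed an unadjusted p of 0.05. It was 8.18, 8.13, 8.31 and 8.27 in the impaired mice and 8.05, 7.92, 8.10 and 8.11 in the intact mice. The difference was 0.18 (SE 0.081; limma, unadjusted p = 0.0531, adjusted p = 0.961). Dlg5 and Myo5a were 2 of 112 genes without overlap, against 2.58% of all genes tested. Of the 20 measured other scaffolds, 7 were lower and 13 higher in the impaired group, with a median of 0.012.

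In the 4 remaining lists no gene had an unadjusted p under 0.05, and the gene with the smallest p is given for each. Rasgrf2, a calcium-dependent activator of Ras, differed by -0.21 (7 of 15 GTPase regulators lower, median 0.013). The adhesion gene Slitrk4 differed by -0.12 (19 of 26 lower, median -0.023). Cbln4, a secreted partner of neurexins, differed by 0.17 (2 of 9 presynaptic partners lower, median 0.020). Zdhhc5, a palmitoyltransferase, differed by -0.25 at a mean of 5.58 in the impaired and 5.83 in the intact group, near the floor of 5.33 (3 of 7 lower, median 0.062).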

How the data were processed

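Hippocampal RNA of 8 mice, 4 per group by the labels, was read on 1-colour Affymetrix mouse arrays after amplification from 1 ng, per the labels' protocols. The deposited table holds log2 values that the authors computed with RMA, per the submitters' processing notes. For the software version and the genome build the sources used here give nothing. Symbols came from the probe table of the platform, where 19572 of 29129 probe sets had 1 symbol. The brightest probe set was used for the 55 genes with more than 1, and the 25% of genes with the lowest mean were left out. Impaired minus intact was tested on all 8 mice by limma 3.58.1 (two-sided, lmFit with eBayes; R 4.3.3), with Benjamini-Hochberg adjustment over 14628 genes and a threshold of 0.05; 95% intervals come from the same fit. The code was tested on simulated data. Median values per array were 7.75 to 7.79, arrays correlated at 0.979 to 0.989, and no pair was identical. Precision is limited by how few arrays there are.

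The members, the related lists and the tests were chosen with earlier results of these data known. The limits of 1.25-fold and 1.5-fold for the intervals were chosen after the values were seen. Values by mouse are given for the 12 members with the smallest p, which include Shank3 and Camk2a, and for Dlg4 and Nrgn. In related lists up to 4 genes with an unadjusted p under 0.05 are named, otherwise the 1 with the smallest p. Dlg5 is also described for its groups, and Ppp3ca and Ppp3r1 are given beside Ppp3cb. The other adhesion genes are named for the mouse with their highest value. The 3 members of widest and of narrowest spread are named. Scan dates were not used here. Alternatives covered the filter, the prior, normalization, probe sets, a replicate block, covariates and leaving out mice. Figures were drawn with matplotlib 3.10.9.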

Additional observations from a re-analysis of the deposited data

Results flagged for a closer look

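Within the groups of 4 mice, 3 of 72 sets of values (36 genes in each group) held a mouse whose gap to the nearest other mouse was, as a share of the whole range, above the 95% limit of Dixon's test for 4 values. Chance gives about 1 in 20, or 3.6 of 72. Dlg4 stood at 12.003 in impaired mouse 3, against 12.05 to 12.06 in the other impaired mice. Camk2g stood at 9.72 in intact mouse 2, against 9.92 to 9.94 in the other intact mice. Begain stood at 7.99 in impaired mouse 2, against 8.13 to 8.14 in the other impaired mice.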

How the results depend on the processing

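No member passed the adjusted test with the settings of the report or in any of 17 alternatives. Over all genes, 0 passed except under the robust prior with intensity trend, where 1 did (Scg5, no member; limma, adjusted p = 0.00958). The count of members with an unadjusted p under 0.05 was 0, and 1 without the 50% of genes with the lowest mean, with the trend and robust prior, with the neuron score and without both mice numbered 3; it was 0 to 2 when single mice were left out. The members lower in the impaired group numbered 15, and 12 to 23 when single mice were left out. The median member difference ran from -0.022 to 0.067 over all settings, negative with the neuron score and without intact mouse 2 or 4. Of the 8 role medians, those of the SAPAP, CaMKII and adhesion groups kept their sign throughout; those of the PSD-95, SHANK and Homer, anchoring, GTPase and spine actin groups changed sign in at least 1 setting. The related genes with an unadjusted p under 0.05 numbered 2 and became 4 with the stricter filter, 4 with the trend and robust prior, 5 with the neuron score, 1 with both tissue scores, 1 without both mice numbered 3, 0 with the replicate block, and 0 to 6 when single mice were left out. The share of all genes tested with such a p also moved. It was 4.68% with the settings of the report, and 4.45%, 4.39%, 6.07%, 4.46%, 4.66% and 4.33% in these alternatives, in the same order. When single mice were left out it ran from 3.33% to 6.43%. The cause of the changes in count was not tested.

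Signs held in all settings for 15 of 36 members, and the other 21 changed sign at least once. With the settings of the report, the differences of these 21 ran from -0.051 for Sipa1l1 to 0.072 for Nrgn. That range also held members that kept their sign, such as Dlg4 at 0.038. Values of opposite sign were, with quantile normalization again, Lrrtm2 0.011 and Lrrc7 0.021; with the plexus and thalamus scores, Dlg3 0.053, Shank3 -0.046, Nlgn2 0.0072, Nlgn3 -0.0023, Homer2 -0.032, Lrrc7 0.011, Sipa1l1 0.0023 and Tanc1 0.042; with the neuron score, Dlg2 -0.026, Baiap2 -0.026 and Agap2 -0.021; and without both mice numbered 3, Dlg3 0.026, Shank1 0.0086, Nlgn2 0.057, Homer2 -0.0017, Sipa1l1 0.050 and Tanc1 0.026. Leaving out single mice gave ranges of Nlgn2 -0.12 to 0.027, Akap5 -0.047 to 0.10, Lrrc7 -0.046 to 0.037, Baiap2 -0.14 to 0.14, Dlg2 -0.062 to 0.064, Tanc1 -0.063 to 0.054, Dlg3 -0.082 to 0.024, Homer2 -0.023 to 0.11, Rgs14 -0.050 to 0.073, Iqsec2 -0.031 to 0.14, Agap2 -0.061 to 0.076, Nrgn -0.0013 to 0.15, Lrrtm2 -0.057 to 0.067, Kalrn -0.057 to 0.13, Synpo -0.0020 to 0.13, Sipa1l1 -0.10 to 0.033, Shank2 -0.017 to 0.12 and Ppp1r9b -0.021 to 0.078.

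The labels number the mice 1 to 4 in each group but do not say that equal numbers belong together. Deviations from the group means of equal-numbered mice correlated at 0.028, 0.033, -0.048 and -0.10 across genes, so that the replicate block was only an alternative; with it 0 members had an unadjusted p under 0.05. No impaired mouse correlated best with its own number. With 4 arrays per group, differences below the intervals given above could not be resolved.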

Other observations

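The postsynaptic density genes were more scattered among the mice with intact memory than among those with impaired memory. For 25 of 36 members, or 69.4%, the standard deviation was larger in the intact group, against 48.9% of all genes tested. The median standard deviation of the members was 0.14 in the intact group and 0.090 in the impaired group, while for all genes tested it was 0.14 in both. Intact mice 3 and 4, which held the highest and lowest scores of the list, lie in the intact group. The difference in scatter was not tested.

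The role groups differed in how far their scores spread over the mice. The score of the 3 spine actin genes ran from -0.24 in intact mouse 4 to 0.21 in intact mouse 3, and that of the 6 small GTPase regulators from -0.17 in intact mouse 2 to 0.17 in intact mouse 3. The adhesion molecules kept within -0.083 to 0.080 over all 8 mice.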
